A study of Mus musculus with 6 samples.

Results

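The genes described here make cholesterol and fatty acids, and 33 of them were chosen by name, from what their products do. Of these, 32 matched 1 row each among the 37620 genes counted, and for Hmgcs1, the enzyme that makes HMG-CoA, no expression value was analysed here, although its promoter sequence is included in the counts of motifs. The list holds 7 genes of the mevalonate arm, 9 of the sterol arm that follows it, 5 regulators of both pathways and 12 genes of the fatty acid arm.

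Cells build cholesterol from acetyl-CoA by way of mevalonate, farnesyl diphosphate and squalene, which is closed into lanosterol and then trimmed to cholesterol. Fatty acids are built from the same acetyl-CoA, then lengthened by elongases and given double bonds by desaturases. Both pathways are switched on by the SREBP transcription factors, which leave the endoplasmic reticulum with their escort SCAP unless an INSIG protein holds them back, and astrocytes are a main source of cholesterol in the adult brain.

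Ribosome-bound mRNA was profiled from the dentate gyrus in 3 Klf9 +/+ and 3 Klf9 f/f samples. All mice carried Gli1CreERT2 and 1 floxed Rpl22HA allele, so that tamoxifen switched on an HA-tagged ribosomal protein in Gli1+ cells, and an antibody to the tag then pulled down ribosomes with their mRNAs. Gli1CreERT2 recombines in radial glia-like neural stem cells (RGLs) and also in astrocytes. Mice of 2 to 3 months received 3 injections of tamoxifen and were taken 4 days after the last of them, and every sample pooled 6 dentate gyri from 3 mice. The Klf9 f/f mice differed by having both Klf9 alleles floxed, and the Klf9 +/+ mice received the same driver, tag and tamoxifen. Library names place replicates 1 and 2 of both genotypes in series 22 and replicate 3 of both in series 32. The replicate numbers only name samples and pair none of them, and p-values measure the spread between these pools.

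The counts on genes ran from 21594714 to 66343759 per sample, and the smallest count of any of the 32 genes in any sample was 124 reads, for Acacb, with a counting error of 8.98%. Levels are given as CPM, the counts of a gene scaled to the size of its library, with library sizes adjusted by the TMM method. Klf9 itself measured 200.7, 204 and 139 CPM across Klf9 +/+ replicates 1 to 3, against 114, 121 and 119.9 CPM across Klf9 f/f replicates 1 to 3. All 3 Klf9 f/f samples lay below all 3 Klf9 +/+ samples, with a smaller gap in series 32. The count covers the whole gene, of which exon 1 is floxed. Astrocyte markers, at 10600 to 16210 CPM summed over 12 genes, and radial glia markers, at 5627 to 8162 CPM over 12 genes, stood beside granule neuron markers at 905 to 1232 CPM over 8 genes, and none of the markers of these lists was at 0 in any sample. Choroid plexus markers reached 4047 CPM over 9 genes in Klf9 +/+ replicate 3. Neuroblast markers reached 1603 CPM over 5 genes in Klf9 +/+ replicate 2, and meningeal markers 1373 CPM over 7 genes in Klf9 +/+ replicate 3.

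Promoter sequences from RefSeq (build GRCm38.p6) are shown for the 3 genes whose samples separated by genotype in both library series, described further on, and for the mevalonate and the sterol gene with the highest level per length among those with a single annotated start. Each run is the 200 bases before the first listed start, 5′ to 3′, with capitals marking a CCAAT box or a GC box (GGGCGG) on either strand.
Insig2, chr1:121332590-121332789, minus strand: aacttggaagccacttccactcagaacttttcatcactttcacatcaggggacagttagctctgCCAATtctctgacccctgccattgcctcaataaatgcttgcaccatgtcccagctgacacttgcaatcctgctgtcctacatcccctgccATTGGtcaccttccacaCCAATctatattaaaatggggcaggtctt
Scap, chr9:110333088-110333287, plus strand: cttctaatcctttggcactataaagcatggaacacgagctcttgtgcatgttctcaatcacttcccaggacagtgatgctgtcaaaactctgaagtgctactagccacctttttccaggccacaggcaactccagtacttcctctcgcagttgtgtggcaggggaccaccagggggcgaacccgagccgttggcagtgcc
Elovl6, chr3:129532186-129532385, plus strand: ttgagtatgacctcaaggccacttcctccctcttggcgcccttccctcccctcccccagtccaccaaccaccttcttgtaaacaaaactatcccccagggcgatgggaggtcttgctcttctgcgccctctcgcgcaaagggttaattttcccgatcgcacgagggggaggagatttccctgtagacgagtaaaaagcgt
Cyp51, chr5:4104698-4104897, minus strand: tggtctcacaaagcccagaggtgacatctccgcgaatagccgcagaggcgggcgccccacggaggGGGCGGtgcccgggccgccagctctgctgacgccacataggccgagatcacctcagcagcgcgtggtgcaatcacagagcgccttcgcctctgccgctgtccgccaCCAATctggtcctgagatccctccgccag
Acat2, chr17:12960726-12960925, minus strand: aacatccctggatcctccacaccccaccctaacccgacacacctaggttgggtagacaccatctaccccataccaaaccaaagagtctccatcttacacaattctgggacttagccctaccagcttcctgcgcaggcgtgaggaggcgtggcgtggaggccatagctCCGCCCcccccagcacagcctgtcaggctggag

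The CCAAT box is bound by NF-Y, a partner of SREBP at sterol genes, and Cyp51, the demethylase of lanosterol, held 1 such box that began 29 bases before its start. The first start of Insig2 had 3 CCAAT boxes in the printed window, while those of Scap and Elovl6 had neither box there. Promoters were found for 27 of the 33 genes, with no entry for Fdps, Fdft1, Sqle, Scd1, Scd2 and Fads1. In the 250 bases before any of a gene's starts, 21 of the 27 held CCAAT on either strand, against 37.5% of 27025 mouse genes with a promoter and 40.7% of the 10225 of them tested here. The box was present in all 7 sterol genes with a promoter, in 5 of 6 mevalonate genes, in 4 of 5 regulators and in 5 of 9 genes of the fatty acid arm.

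Krüppel-like factors bind GC boxes and CACCC boxes. GGGCGG stood in 21 of the 27 promoters, against 63.8% of tested genes, and CACCC in 18 of the 27, against 62.6% of tested genes. By arm, GGGCGG was in all 7 sterol genes with a promoter, 5 of 6 mevalonate genes, all 5 regulators and 4 of 9 fatty acid genes. These regulators include Scap, for which only the window of the first of 2 starts is printed. The E box CACGTG was found in Dhcr7, Elovl5, Hsd17b7, Insig1 and Scap, which is 18.5% of the 27 and compares with 9.84% of tested genes. One published form of the sterol response element, TCACNCCAC, which overlaps CACCC where its open base is C, was found in Hmgcs1 and in 1.21% of tested genes. Genes with several starts had more sequence searched, and a match of letters is not a bound site.

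The levels per length differed widely between genes of an arm. Expressed as CPM per kb of annotated exon, the highest level belonged to Fads2, the desaturase that starts the synthesis of highly unsaturated fatty acids, at 239 ± 42.4 (SD, n = 6). Scd2, the stearoyl-CoA desaturase of brain, followed at 215 ± 50.2 (SD, n = 6) CPM per kb and Fads1, the next desaturase of the Fads2 route, at 143 ± 26.2 (SD, n = 6) CPM per kb, so that Fads2 and Scd2 lay closer together than their spread. At the other end stood Acacb, the acetyl-CoA carboxylase of the mitochondrial surface, at 0.504 ± 0.167 (SD, n = 6) CPM per kb and Acaca, the cytosolic carboxylase that commits acetyl-CoA to fatty acids, at 2.03 ± 0.367 (SD, n = 6) CPM per kb.

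Among the mevalonate genes, Fdps, which makes farnesyl diphosphate, was highest at 90.4 ± 30.5 (SD, n = 6) CPM per kb and Idi1, the isomerase before it, lowest at 3.07 ± 0.769 (SD, n = 6). Among the sterol genes, Fdft1, the squalene synthase, was highest at 54.6 ± 15.9 (SD, n = 6) CPM per kb and Lss, which closes squalene epoxide into lanosterol, lowest at 3.03 ± 0.357 (SD, n = 6). Srebf2, the SREBP that acts mainly on sterol genes, was the highest regulator at 42.2 ± 9.47 (SD, n = 6) CPM per kb, above Srebf1, the SREBP that acts mainly on fatty acid genes, at 27.6 ± 6.74 (SD, n = 6).

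Several of these levels are limited by near-identical copies, since reads that map to more than 1 place were not assigned to a gene. Of the 50-base windows in the exons of Idi1, 84.4% also occur elsewhere in mm9, mostly in the pseudogene Gm13502 on chromosome 2. The share was 65.5% for Fdps, with the pseudogene Gm3571 on chromosome 10 as the main copy, 60.5% for Acaca, 42.2% for Acat2, 33.1% for Insig1, 32.3% for Me1 and 19.7% for Fdft1, and it was at most 7.7% for the other 25 genes. Per kb of exon that occurs once in the genome, Fdps stood at 262.5 CPM, above Fads2 at 238.9 CPM, and Idi1 at 19.7 CPM, above Mvk, the mevalonate kinase, at 10.4 CPM. No spread was computed on this scale, so the order of Fdps and Fads2 was not settled. On the same scale Acaca stood at 5.14 CPM, above Lss at 3.04 CPM and Hsd17b7 at 3.79 CPM, while Acacb remained the lowest. The reads counted on Gm13502 were at most 0.909 CPM in any sample and those on Gm3571 at most 1.43 CPM.

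**Figure D1:**
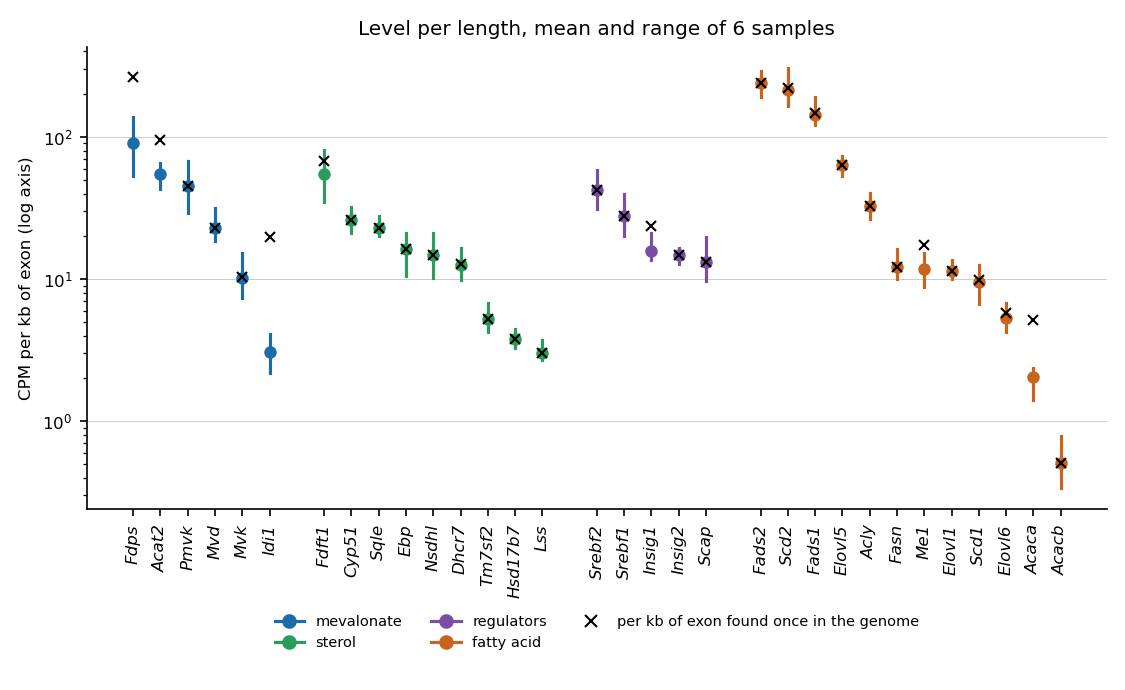
Level of each of the 32 genes per kb of exon on a log axis, as the mean (point) and the range (line) of all 6 samples, with crosses for the mean per kb of exon found once in the genome. Fads2, Scd2 and Fads1 lie highest by the points, and the cross of Fdps at 262.5, drawn without a range, lies above them.

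Whether loss of Klf9 from Gli1+ cells alters these pathways was asked by comparing Klf9 f/f with Klf9 +/+ samples, with the library series as a term. None of the 32 genes passed the threshold of 1.2-fold and an unadjusted p under 0.05 in edgeR's quasi-likelihood test, with 0 called up and 0 called down, while 1.82% of all 15056 genes tested were called up and 2.5% called down. At an adjusted p under 0.05 there were 0 of the 32 genes, beside 0.0% of all genes. The count at an unadjusted p under 0.05 was also 0, the smallest p was 0.0868, and DESeq2 and edgeR's likelihood-ratio test called 0 of the 32 genes as well. In such pools, fewer cells of a type and less ribosome-bound mRNA per cell cannot be told apart.

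Fitted log2 fold changes, Klf9 f/f over Klf9 +/+, ran from -0.26 for Elovl6 to 0.29 for Fads2, with 16 genes above 0 and 16 below. Their standard errors ran from 0.12 to 0.28. All 32 of the 95% intervals contained 0 and lay within a doubling or halving, and 23 of them lay within 1.5-fold in either direction. The median over all genes tested was 0.00, and 50.2% of them were above 0.

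**Figure D2:**
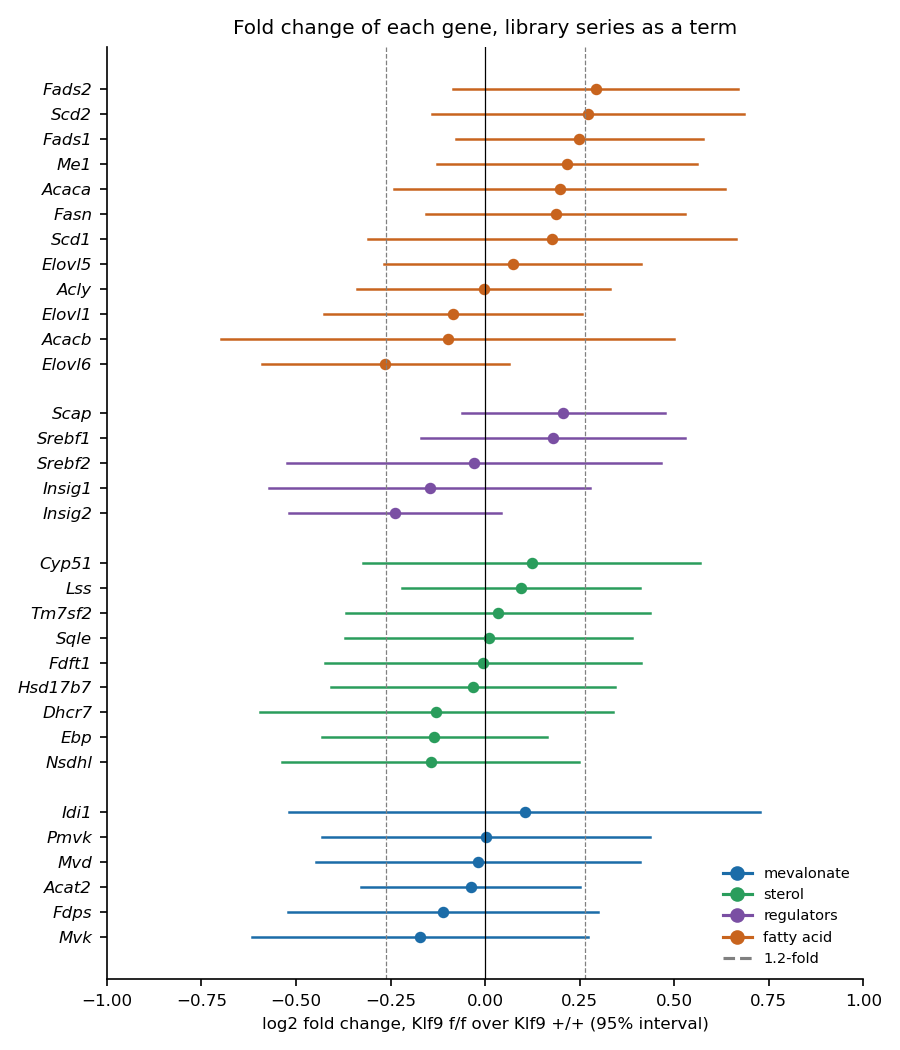
Log2 fold change of each gene, Klf9 f/f over Klf9 +/+, with its 95% interval from edgeR's quasi-likelihood fit over 3 samples of each genotype, sorted within each arm, and with dashed lines at 1.2-fold. Every interval crosses 0, and the points run from -0.26 for Elovl6 to 0.29 for Fads2.

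The mevalonate arm was centred near 0, with a median log2 fold change of -0.03 over 6 genes, 2 above 0 and 4 below. Fdps measured 171, 119 and 65.1 CPM across Klf9 +/+ replicates 1 to 3, against 109.8, 126 and 77.9 CPM across Klf9 f/f replicates 1 to 3. The series 32 samples were the lowest of each genotype, and within series 22 the Klf9 f/f values overlapped those of Klf9 +/+. Its log2 fold change was -0.11 (standard error 0.18).

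Idi1 measured 11.2, 6.24 and 8.06 CPM across Klf9 +/+ replicates 1 to 3, against 11.7, 7.05 and 8.59 CPM across Klf9 f/f replicates 1 to 3. In each genotype replicate 1 was high and replicate 2 low, and the groups overlapped. The other 4 genes were Acat2, the thiolase that joins acetyl-CoA units, the kinases Mvk and Pmvk and the decarboxylase Mvd, and their log2 fold changes lay between -0.17 and 0.00.

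The sterol arm had a median log2 fold change of -0.01 over 9 genes, 4 above 0 and 5 below. Fdft1 (chromosome 14 of mm9, 63763990 to 63796630) measured 230.1, 147 and 99.3 CPM across Klf9 +/+ replicates 1 to 3, against 167, 172 and 122 CPM across Klf9 f/f replicates 1 to 3. Klf9 +/+ replicate 1 was the highest sample, and the Klf9 f/f samples of series 22 lay between those of Klf9 +/+. The count was made without regard to strand, and 26.9% of the exon bases of Fdft1 overlap exons of Ctsb on the other strand.

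Lss measured 29, 32.9 and 32.3 CPM across Klf9 +/+ replicates 1 to 3, against 32, 29.7 and 39.9 CPM across Klf9 f/f replicates 1 to 3. Only Klf9 f/f replicate 3 lay above the Klf9 +/+ range. Sqle, the epoxidase of squalene, differed by 0.01 ± 0.17 (SE) on the log2 scale and Cyp51 by 0.12 ± 0.20 (SE). The reductase Tm7sf2 and the demethylating enzymes Hsd17b7 and Nsdhl were at 0.03, -0.03 and -0.14. Ebp, the sterol isomerase, and Dhcr7, the reductase that completes cholesterol, were both at -0.13.

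In the mevalonate and sterol arms the samples of 1 genotype differed among themselves more than the genotypes did. Klf9 +/+ replicate 1 was the highest of the 4 samples of series 22 for 12 of the 15 genes, all but Idi1, Lss and Cyp51, while it was the highest for 25.3% of all genes tested. The median log2 difference between Klf9 +/+ replicates 1 and 2 was 0.57 over these 15 genes and -0.00 over all genes. Between Klf9 f/f replicates 1 and 2 it was -0.03 over the 15 genes, with opposite signs by arm. It was -0.18 over the mevalonate genes and 0.14 over the sterol genes. This pattern was noticed after the values were seen. Without Klf9 +/+ replicate 1 the median log2 fold change became 0.17 in the mevalonate arm and 0.13 in the sterol arm.

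The same sample held the most RNA of blood vessel markers in series 22. Of the 8 endothelial markers 2 were called down, beside 2.5% of all genes tested, and none was at 0. They summed to 133 to 339 CPM in the Klf9 +/+ samples and to 50.2 to 215 CPM in the Klf9 f/f samples. The 339 CPM was in Klf9 +/+ replicate 1. The 6 mural markers, 3 of them called down and none at 0, summed to 556 to 983 CPM in Klf9 +/+ and to 408 to 723 CPM in Klf9 f/f. Radial glia markers, by mean log2 CPM over 12 genes, also stood highest in Klf9 +/+ replicate 1 within series 22, at 8.51. Klf9 f/f replicates 1 and 2 followed at 8.31 and 8.27, and Klf9 +/+ replicate 2 was last at 8.03. Means over the 15 mevalonate and sterol genes had the same order, at 5.98, 5.67, 5.59 and 5.51. Endothelial markers ranked Klf9 f/f replicate 2 last, at 2.07. Summed CPM of radial glia markers was highest in Klf9 f/f replicate 1. The part of these marker lists in the sterol gene levels was not tested.

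**Figure D3:**
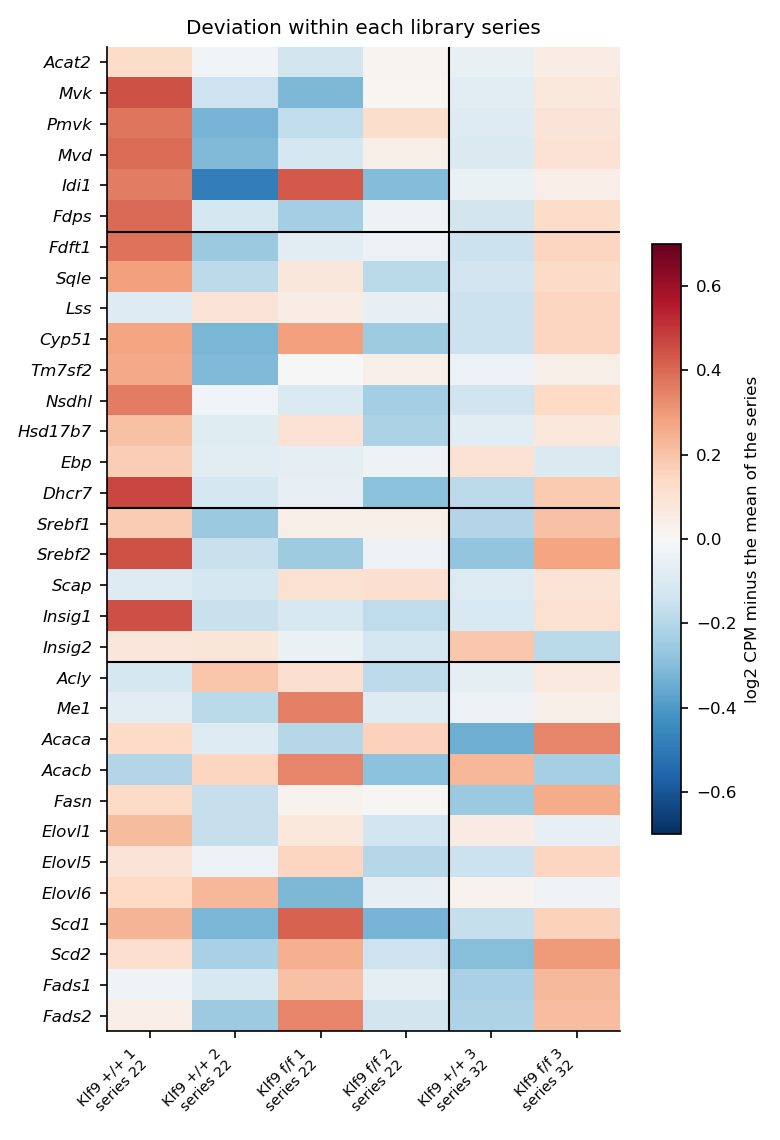
Log2 CPM of each gene in each sample minus the mean of the samples of that library series, with genes in rows, arms divided by black lines, and red for high and blue for low. Klf9 +/+ replicate 1 is the highest sample of series 22 for 12 of the 15 mevalonate and sterol genes, and Klf9 f/f replicate 3 is above Klf9 +/+ replicate 3 in 14 of them.

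Of the 5 regulators, 2 had samples that separated by genotype in both library series, Scap upward, as did 7.78% of all genes tested, and Insig2 downward, as did 5.53%. Scap (ENSMUSG00000032485, chromosome 9 of mm9, 110235792 to 110287450) measured 51.3, 50.2 and 89.96 CPM across Klf9 +/+ replicates 1 to 3, against 58.8, 59.1 and 102 CPM across Klf9 f/f replicates 1 to 3. Each Klf9 f/f sample was above the Klf9 +/+ samples of its own series, and both samples of series 32 were above all of series 22. The log2 fold change was 0.21 (standard error 0.12, unadjusted p = 0.115, edgeR quasi-likelihood test), and 18.9% of the exon bases of Scap overlap exons of 5830462I19Rik on the other strand.

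Insig2 (ENSMUSG00000003721, chromosome 1, 123200930 to 123229166), which retains SCAP in the endoplasmic reticulum, measured 54.3, 54.4 and 57.6 CPM across Klf9 +/+ replicates 1 to 3, against 49.6, 47.1 and 44.2 CPM across Klf9 f/f replicates 1 to 3. All 3 Klf9 f/f samples lay below all 3 Klf9 +/+ samples, and how many of all genes did so was not counted. Within each series, 5.53% of all genes tested separated downward. The log2 fold change was -0.24 (standard error 0.12, unadjusted p = 0.0868 and adjusted p = 1.0, edgeR quasi-likelihood test with Benjamini-Hochberg adjustment), which did not pass the threshold.

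Insig1, the INSIG gene that is itself induced by SREBP, measured 55.8, 36.6 and 39 CPM across Klf9 +/+ replicates 1 to 3, against 37.8, 36.1 and 45.3 CPM across Klf9 f/f replicates 1 to 3. Klf9 +/+ replicate 1 was the highest sample and the other 5 samples overlapped. Its log2 fold change was -0.15 (standard error 0.19).

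Srebf1 measured 152, 112 and 168 CPM across Klf9 +/+ replicates 1 to 3, against 138, 138 and 223 CPM across Klf9 f/f replicates 1 to 3. In series 22 the Klf9 f/f samples lay between the Klf9 +/+ samples, and in series 32 the Klf9 f/f sample was higher. Its log2 fold change was 0.18 (standard error 0.15), and it was 0.06 without Klf9 +/+ replicate 3, 0.07 without Klf9 f/f replicate 3, 0.09 without Klf9 +/+ replicate 2 and 0.35, past the threshold, without Klf9 +/+ replicate 1.

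Srebf2 (chromosome 15, 81977696 to 82035806) measured 293, 193 and 156 CPM across Klf9 +/+ replicates 1 to 3, against 181, 209.6 and 229 CPM across Klf9 f/f replicates 1 to 3. In series 22 the genotypes overlapped, with Klf9 +/+ replicate 1 far above the other samples, and in series 32 the Klf9 f/f sample was higher. Over all 6 samples the log2 fold change was -0.03 (standard error 0.22). With each sample left out it ran from -0.32 without Klf9 +/+ replicate 3 to 0.24 without Klf9 +/+ replicate 1.

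**Figure D4:**
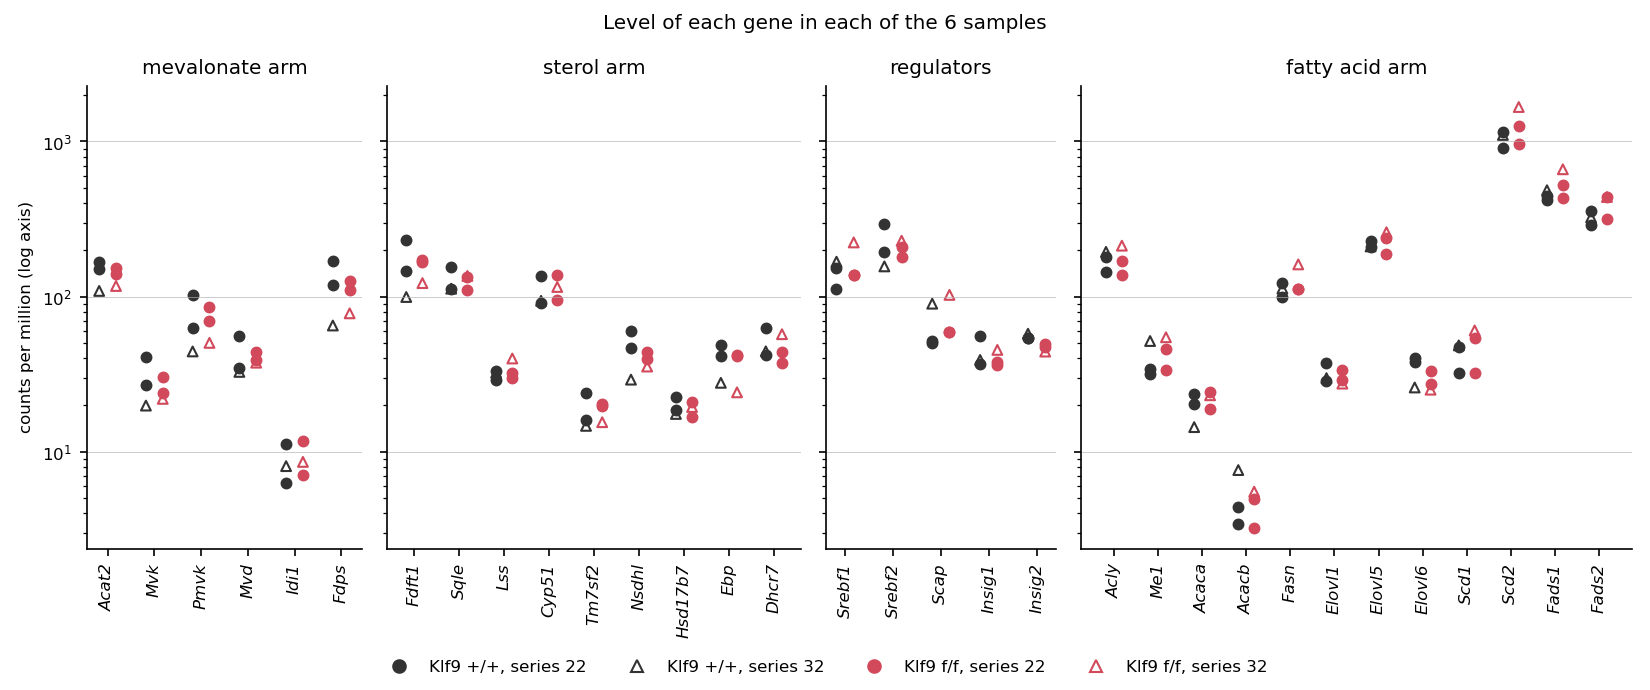
CPM of each gene in each of the 6 samples on a log axis, with Klf9 +/+ in dark and Klf9 f/f in red, circles for series 22 and open triangles for series 32. Insig2 lies at 44.2 to 49.6 CPM in its Klf9 f/f samples and at 54.3 to 57.6 CPM in its Klf9 +/+ samples. How many of all genes had no overlap across the 6 samples was not counted. By the looser measure of separation within each series, 5.53% of all genes tested separated downward.

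The fatty acid arm had the highest median log2 fold change of the arms, 0.18 over 12 genes. Of these, 8 were above 0 and 4 below, beside 50.2% of all genes tested above 0. Without Klf9 f/f replicate 1 the median of the arm was 0.03 and the regulators, at 0.12, were the highest, and without either sample of series 32 it was 0.05. The 3 most abundant genes of the arm per length were also those with the largest positive values. Fads2 (ENSMUSG00000024665, chromosome 19, 10138654 to 10175993) measured 357, 289 and 324 CPM across Klf9 +/+ replicates 1 to 3, against 437, 315 and 438 CPM across Klf9 f/f replicates 1 to 3. Klf9 f/f replicates 1 and 3 were above all Klf9 +/+ samples, and Klf9 f/f replicate 2 lay within their range. The log2 fold change was 0.29 (standard error 0.17, unadjusted p = 0.113, edgeR quasi-likelihood test), and it was 0.17 without Klf9 f/f replicate 1 and 0.44, past the threshold, without Klf9 f/f replicate 2.

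Scd2 averaged 1053 ± 129 (SD, n = 3) CPM with Klf9 intact and 1296 ± 356 (SD, n = 3) CPM in Klf9 f/f (log2 fold change 0.27, standard error 0.18). With each sample left out the Scd2 value ran from 0.10 without Klf9 +/+ replicate 3 to 0.43 without Klf9 f/f replicate 2, and it passed the threshold only without Klf9 +/+ replicate 1, at 0.42. Without Klf9 f/f replicate 3 it was 0.11. Fads1 averaged 449 ± 33.4 (SD, n = 3) and 539 ± 115 (SD, n = 3) CPM (log2 fold change 0.25, standard error 0.14), and its value was 0.14 without Klf9 +/+ replicate 3 and 0.15 without Klf9 f/f replicate 3. In both genes Klf9 f/f replicate 3 was the highest of all 6 samples, and Klf9 f/f replicate 2 lay within the Klf9 +/+ range.

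Elovl6 (ENSMUSG00000041220, chromosome 3, 129235304 to 129341413), the elongase that carries palmitate to stearate, went the other way. It measured 37.8, 40.2 and 25.9 CPM across Klf9 +/+ replicates 1 to 3, against 27.5, 32.9 and 25.1 CPM across Klf9 f/f replicates 1 to 3. Each Klf9 f/f sample was below the Klf9 +/+ samples of its own series, by a small margin in series 32, and the genotypes overlapped when the series were pooled. The log2 fold change was -0.26 (standard error 0.14, unadjusted p = 0.102, edgeR quasi-likelihood test).

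Over all 32 genes, 1 separated upward in both series and 2 downward, which is 3.12% and 6.25% of the 32, beside the shares of 7.78% and 5.53% of all genes tested. These 3 genes, Scap, Insig2 and Elovl6, also separated with upper-quartile scaling and with no scaling factor.

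Acacb measured 3.41, 4.38 and 7.61 CPM across Klf9 +/+ replicates 1 to 3, against 4.99, 3.23 and 5.52 CPM across Klf9 f/f replicates 1 to 3. The groups overlapped, and its log2 fold change was -0.10 (standard error 0.27). Fasn, the fatty acid synthase, was at 0.19 on the log2 scale, Acaca at 0.20 and Me1, a source of NADPH for the synthase, at 0.22. Acly, which makes acetyl-CoA from citrate, was at -0.00. The desaturase Scd1 was at 0.18, and the elongases Elovl5 and Elovl1 at 0.07 and -0.08.

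Astrocyte markers varied beside the desaturases. Of the 12 astrocyte markers 4 were called up, beside 1.82% of all genes tested, and none was at 0. They summed to 10600 to 15030 CPM in the Klf9 +/+ samples and to 14540 to 16210 CPM in the Klf9 f/f samples. Within series 22 their mean log2 CPM ranked Klf9 f/f replicate 1 first, then Klf9 +/+ replicate 1, Klf9 f/f replicate 2 and Klf9 +/+ replicate 2, the order in which Fads2 stood. In series 32 it was 8.82 in Klf9 +/+ and 9.32 in Klf9 f/f. Their part in the values of the fatty acid arm was not tested.

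Most mevalonate and sterol genes had opposite signs in the library series. In series 22, with 2 samples of each genotype, only 3 of the 15 mevalonate and sterol genes had the higher mean in Klf9 f/f (median log2 difference -0.11), while 49.2% of all genes were higher. That count rests largely on Klf9 +/+ replicate 1, the highest sample of series 22 for 12 of the 15. Without that sample the median log2 fold change, fitted over both series, was 0.17 in the mevalonate arm and 0.13 in the sterol arm. In series 32, with 1 sample of each genotype and so no spread of its own, 14 of the 15 had the higher value in Klf9 f/f, all but Ebp (median log2 difference 0.20), while 53.9% of all genes were higher. In the fatty acid arm 7 of 12 genes were higher in Klf9 f/f in series 22 and 9 of 12 in series 32, with median log2 differences of 0.04 and 0.31. The regulators stood at -0.17 and 0.22.

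Over all 32 genes, 17 had opposite signs in the series, which is 53.1%, beside 44.5% of all genes tested, while 11 were higher and 4 lower in Klf9 f/f in both. A test of the interaction between genotype and series, with 2 residual degrees of freedom, gave 0 of the 32 genes at an unadjusted p under 0.05, beside 1.53% of all genes. Srebf2 came closest, with log2 differences of -0.29 in series 22 and 0.55 in series 32 (unadjusted p = 0.0621, edgeR quasi-likelihood test of the interaction). Dhcr7 followed, with -0.35 and 0.37 (unadjusted p = 0.0994 in the same edgeR test).

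**Figure D5:**
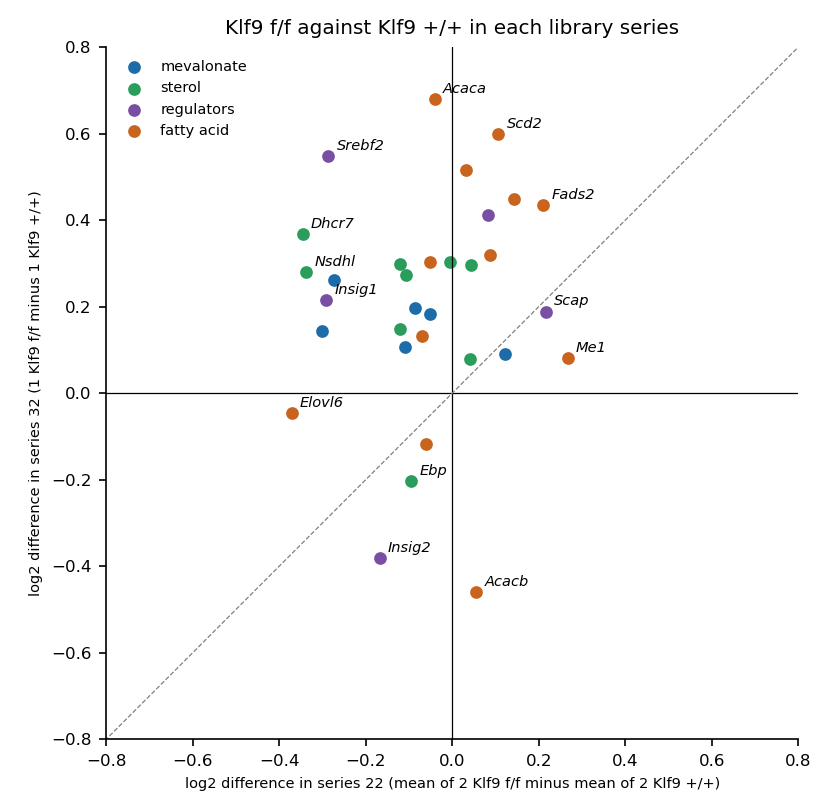
Log2 difference between Klf9 f/f and Klf9 +/+ in series 22 on the x axis (means of 2 samples each) and in series 32 on the y axis (1 sample each), 1 point per gene coloured by arm, with a dashed line where both are equal. In series 32, 14 of the 15 mevalonate and sterol genes lie above 0, and 3 of the 15 do so in series 22. Klf9 +/+ replicate 1 was the highest sample of series 22 for 12 of the 15.

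Another 24 genes of sterol synthesis and export, SREBP handling and fatty acid steps, from a list separate from the 33, had a median log2 fold change of 0.03, with 14 above 0 and 10 below. None was called up and 1 was called down, beside 1.82% and 2.5% of all genes tested. The 1 gene was Elovl7, an elongase of saturated fatty acids. Elovl7 measured 4.81, 5.72 and 30.7 CPM across Klf9 +/+ replicates 1 to 3, against 3.87, 1.08 and 3.92 CPM across Klf9 f/f replicates 1 to 3. Klf9 +/+ replicate 3 was far above the other samples, and each Klf9 f/f sample lay below the Klf9 +/+ samples of its series. The log2 fold change was -1.68 (standard error 0.50, unadjusted p = 0.00838 and adjusted p = 0.971, edgeR quasi-likelihood test with Benjamini-Hochberg adjustment).

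Choroid plexus markers moved beside Elovl7. All 9 were called down, beside 2.5% of all genes tested, and none was at 0. They summed to 261, 980 and 4047 CPM across Klf9 +/+ replicates 1 to 3, against 184, 107 and 768 CPM across Klf9 f/f replicates 1 to 3. Klf9 +/+ replicate 3 was the highest sample for both. Their part in the Elovl7 value was not tested.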

How the data were processed

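Per the paper's methods and the submitters' processing notes, 50-base reads were aligned by the authors to mm9 using STAR, unstranded gene counts were made in HTSeq, and these raw counts were deposited. Rows were named through the GENCODE M1 annotation of the same build, and the summary lines of HTSeq, which held 7.63% to 13.60% of reads as not uniquely aligned, were left out. Genes above 1 CPM in at least 1 sample, 15056 in all, were normalized by TMM and tested in R 4.3.3 by edgeR 4.0.16 (quasi-likelihood test), with the library series as a term, 3 residual degrees of freedom and Benjamini-Hochberg adjustment over all genes. The threshold of 1.2-fold and an unadjusted p under 0.05 was taken from the study's methods. Intervals are 95% intervals, and log2 CPM used a prior count of 2. Lengths are unions of annotated exons. The script was tested on simulated data.

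The genes and lists were chosen with earlier results of these data known. Every sample value was given for genes past the threshold or separated in both series, the highest and the lowest gene per length of each arm and all regulators, and the others were given by fold change or range. Genes of the second list were named only past the threshold, apart from Hsd17b12, which was picked once its values were known. The alternatives tried were no series term, upper-quartile normalization, DESeq2 1.42.0, the likelihood-ratio test, other filters, series 22 alone, each sample left out and other gene lengths. Exon windows that occur once in the genome were added after the data were seen.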

Additional observations from a re-analysis of the deposited data

Results flagged for a closer look

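Nsdhl, an enzyme of sterol demethylation, had Klf9 f/f samples below both Klf9 +/+ samples in series 22 and above the Klf9 +/+ sample in series 32. It measured 60.1, 46.3 and 29.1 CPM across Klf9 +/+ replicates 1 to 3, against 43.8, 39.8 and 35.4 CPM across Klf9 f/f replicates 1 to 3. The log2 difference in series 32 minus that in series 22 was 0.63 (standard error 0.37, unadjusted p = 0.117, edgeR quasi-likelihood test of the interaction), which did not pass, and 9.94% of all genes tested had samples set apart in opposite directions in this way.

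Hsd17b12, a reductase of fatty acid elongation from the second list, named after its values were seen, showed the same pattern, with 169, 158 and 100.1 CPM across Klf9 +/+ replicates 1 to 3, against 151, 132 and 139.8 CPM across Klf9 f/f replicates 1 to 3. The difference between series was 0.69 (standard error 0.34, unadjusted p = 0.0696, edgeR interaction test).

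Elovl7 was lower in Klf9 f/f in both series, and more so in series 32, where the log2 difference from series 22 was -1.90 (standard error 0.82, unadjusted p = 0.0407 and adjusted p = 1.0, edgeR interaction test with Benjamini-Hochberg adjustment).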

How the results depend on the processing

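The count of genes past the threshold, 0 of 32, was the same under the other fits, filters and scalings. With each sample left out it ran from 0 to 2, with 2 genes (Srebf1 and Scd2) without Klf9 +/+ replicate 1 and 1 gene (Fads2) without Klf9 f/f replicate 2, and the smallest adjusted p of any of the genes in any of the 13 alternatives was 0.904. The interaction gave 1 gene (Srebf2) with DESeq2 and 1 (Srebf2) with all genes of at least 1 count, and 0 to 2 with each sample left out, with 1 (Srebf2) without Klf9 f/f replicate 2 and 2 (Srebf2 and Dhcr7) without Klf9 +/+ replicate 2. Leaving out a series 32 sample leaves the other without a partner, so that such a fit rests on series 22.

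With each sample left out, the median log2 fold change ran from -0.17 to 0.17 in the mevalonate arm, from -0.12 to 0.13 in the sterol arm, from -0.17 to 0.21 among the regulators and from 0.03 to 0.27 in the fatty acid arm. The regulators moved beyond their spread without Klf9 +/+ replicate 1, to 0.21. In 22 genes the sign of the fold change differed from the reported one in at least 1 of the 13 alternatives, in 11 of them without Klf9 +/+ replicate 1. The sign was the same in all 13 for Ebp, Srebf1, Scap, Insig2, Me1, Fasn, Elovl6, Scd2, Fads1 and Fads2.

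With the longest transcript as the length, 11 of 32 levels moved by more than 1 SD and the lowest sterol gene became Hsd17b7, at 4.18 CPM per kb, and the lowest regulator Insig1, at 15.8 CPM per kb. With exon windows that occur once, 6 levels moved. No replicate block was fitted, since the replicate numbers were given in accession order and pair no samples.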
